A study of Mus musculus with 6 samples.

Results

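Glomeruli of control BXSB/MpJ-Yaa+ mice were profiled on 3 one-colour microarrays of the 6 in the series, and their resting expression profile is described here without a contrast to the diseased strain. The control mice were males of 4 months that carried the wild-type Y chromosome, kept free of specific pathogens; the recombinant inbred BXSB background comes from a C57BL/6 female and a SB/Le male. The other 3 arrays hold glomeruli of BXSB/MpJ-Yaa males of the same age, whose Y chromosome carries the Yaa duplication of an X segment and which serve as a glomerulonephritis model; they entered only the check of the labels. Glomeruli were isolated by perfusing the kidneys with beads, the 6 glomerular populations of each strain were divided into 3 groups of 2, and each group gave 1 array, so that n = 3 means 3 such groups, called pools here. SDs measure the spread between these pools. No cells were sorted, so each array measured RNA of all cells in the preparation. In such bulk RNA, fewer cells of a type and less RNA per cell cannot be told apart.

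The source name of every sample gives the strain opposite to the one in its title, description and genotype, and the last 3 were followed. Tlr7 and Tlr8 lie in the X segment that Yaa copies onto the Y chromosome. Tlr8 was above background on 0 of the 3 arrays titled as control and on 3 of the 3 titled as Yaa. The Tlr7 level was 1.47, 1.52 and 1.45 in control glomeruli and 2.31, 2.41 and 2.38 in Yaa glomeruli, with no overlap. Erdr1 ran the other way, at 5.77 ± 0.18 (SD, n = 3) in control and -2.63 ± 1.33 (SD, n = 3) in Yaa glomeruli. A level is defined in the next paragraph. The female transcript Xist was above background on 0 arrays of either group.

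A level in this text is the log2 of the processed signal of a probe minus the log2 of the 75th percentile of all gene spots on the same array, so that 0 is the signal of that percentile and each unit is a doubling. A gene was represented by its brightest probe among those well above background on all 3 control arrays, and 20366 of the 34844 genes on the array (58.4%) had such a probe. These genes were ranked by mean level, and a rank percentile gives the share of them with a lower level. The median gene had a level of 0.37, the central range from the lower to the upper quartile ran from -1.72 to 2.58, and 732 genes reached a level of 6 or more. The order is one of probe signals: probes differ in how strongly they bind and label, so a place in the order is not an amount of transcript. Among 5437 genes with more than 1 probe above background, the brightest and the dimmest probe differed by a median of 2.06, and in 1819 of them (33.5%) by 3 or more. Other probes are given below for some genes only. Myh9, Flt1, Podxl and Pdgfb, for instance, each had a dimmer probe above background, at -3.29, -2.94, -1.95 and -1.77.

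The 75th percentile lay at a signal of 261.2 to 292.7, between 54.2% and 57.5% of gene spots were well above background, and 0 spots were saturated. Probe levels correlated between arrays with Pearson's r of 0.991 to 0.993, as a description across probes, which are not independent. The median SD of a gene among the 3 arrays was 0.152, against 0.066 to 0.072 between spots of the same probe on a single array (296 probes). An SD of 0.5 or more was found in 772 of the 20366 genes (3.79%). This count depends on the processing: it was 227 with normexp background correction, 1197 with detection on at least 2 arrays, 1214 with the median of all probes of a gene and 5704 with no filter on dim probes. All arrays lay on 1 slide and were scanned on 1 day. Errors below are SDs over 3 arrays, and that number limits their precision.

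A glomerulus is a tuft of fenestrated capillaries held together by mesangial cells and covered by podocytes, whose foot processes are joined by slit diaphragms. Endothelial cells and podocytes share a basement membrane of laminin, type IV collagen, nidogen and heparan sulfate proteoglycans, and this layer and the slit diaphragm filter the blood. Parietal epithelial cells line the surrounding capsule, smooth muscle and renin cells sit at the arterioles, and the tubule starts at the urinary pole.

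The probes behind the markers show what was read. The first 30 bases of 6 of them are printed from the array's probe sequences, 5′ to 3′, with mm9 coordinates of the printed bases.
Nphs1 (chr7:31273569-31273598, + strand): tgccacatatacacgcccacacgcctgaca
Cdkn1c (chr7:150644783-150644812, - strand): cgtagagcagcccacggttttgtggaaatc
Sema3g (chr14:32043435-32043464, + strand): attgttgttgatatttttattgtcatgttg
Egfl7 (chr2:26448142-26448171, + strand): cctgtctaagtggtaaggtggggattgtct
Itga8 (chr2:12028492-12028521, - strand): catacattggtattctcgaggagtctatct
Kap (chr6:133799955-133799984, - strand): caaagaagaaagaacgaggaagtgatcctg
The single probe of Nphs1, which encodes nephrin of the slit diaphragm, gave -4.74, -3.73 and -5.03 on control replicates 1, 2 and 3 and was above background on 1 of the 3 arrays. The Cdkn1c and Sema3g probes, of genes that podocytes also express, stood near the top of the signal range. What the Nphs1 probe missed, if anything, was not tested.

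The brightest signals of the whole array came in large part from probes that share sequence with probes of other genes. Of the 25 brightest genes with an established symbol, 15 were read by a probe that has at least 16 bases in common with probes of 2 or more other genes. The share of such probes was 5.87% of all probes, 8.29% of the genes above background and 4.32% of those below the median level, but 49.4% of the 500 brightest genes. The sequences that carry this are shown as 30-base windows, with the shared 16 bases in capitals.
Kctd14 (chr7:104606924-104606953, + strand): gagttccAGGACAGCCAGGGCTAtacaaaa
Glrx2 (chr1:145596720-145596749, + strand): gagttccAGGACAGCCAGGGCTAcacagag
Elk1 (chrX:20510533-20510562, - strand): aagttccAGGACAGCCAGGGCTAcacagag
Med16 (chr10:79357699-79357728, - strand): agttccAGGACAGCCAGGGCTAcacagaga
Ndor1 (chr2:25100397-25100426, - strand): ttccaggAGGACAGCCAGGGCTAcacagag
Cxcl11 (chr5:92788590-92788619, - strand): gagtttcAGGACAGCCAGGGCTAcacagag
Lilrb3 (chr7:3663052-3663081, - strand): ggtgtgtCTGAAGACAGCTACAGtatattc
Synrg (chr11:83855526-83855555, + strand): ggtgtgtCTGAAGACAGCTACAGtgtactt
Pbld1 (chr10:62540228-62540257, + strand): ggagtgtCTGAAGACAGCTACAGtgtaatt
Phyhd1 (chr2:30134988-30135017, + strand): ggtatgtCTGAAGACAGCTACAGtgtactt
Slc10a1 (chr12:82056567-82056596, - strand): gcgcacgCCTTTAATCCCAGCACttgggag
Csf3r (chr4:125721508-125721537, + strand): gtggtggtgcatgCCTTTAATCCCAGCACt
Itgam (chr7:135261755-135261784, + strand): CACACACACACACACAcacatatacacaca
As background, the stretches of the first 12 lines are of the kind found in short interspersed repeats of rodent genomes, which occur in the untranslated ends of many messages, and the last is a simple repeat. No repeat annotation was used here.

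On this array the stretch AGGACAGCCAGGGCTA lay in 7 probes of 7 genes (0.0126% of all probes), every one of them above background on all 3 arrays, at levels of 6.27 to 10.55. Its reverse complement, TAGCCCTGGCTGTCCT, lay in 4 probes at -1.59 to 3.18. The second stretch, CTGAAGACAGCTACAG, lay in 11 probes of 11 genes (0.0198%), all above background at 7.86 to 9.74, and its reverse complement, CTGTAGCTGTCTTCAG, in 2 probes at -3.37 and 1.19. Probes with either stretch in the printed strand thus did not overlap in level with probes that carry it in the other strand. Both stretches were picked from probes of the brightest genes. High levels in the printed strand therefore follow in part from that choice, and the gap between strands is given as a description only. The third stretch, CCTTTAATCCCAGCAC, lay in 4 probes (0.00718%) at 4.30 to 10.32, and its reverse complement, GTGCTGGGATTAAAGG, in 2 probes, at -1.11 and 2.32. The run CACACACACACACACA lay in 34 probes (0.0611%) at -3.84 to 8.14, with a median level of 5.94. TGTGTGTGTGTGTGTG lay in 71 probes (0.128%) at -1.09 to 5.97, with a median of 3.90. For this run the levels of the strands overlapped. Every probe with a run in either strand was above background, as against 50.3% of all probes.

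Of the 15 bright genes with a shared stretch, 12 had another probe on the array, and each of the 12 had one at least 6 log2 units dimmer. Each gene was represented by its brightest probe, so its other probes are dimmer by choice. Gaps as wide occurred at some bright genes without a shared stretch, such as Zfp628 (9.93 and 1.26), but not at others, such as Sparc (9.80 and 3.89). Their share among all bright genes was not counted. Kctd14, which ranked first at 10.55 ± 0.15, had 2 other probes, at -4.02 and -5.98, neither above background on all arrays. Slc10a1, the bile acid transporter of hepatocytes, stood at 10.32 ± 0.06 with its other probe at -6.39. Elk1, a ternary complex factor that works with serum response factor, stood at 10.23 ± 0.08 with its other probe at -2.94. Cxcl11, an interferon-induced chemokine, stood at 9.65 ± 0.14 with its other probe at 3.63. Whether the bright probes read their own gene or other transcripts with the stretch was not tested, so these ranks are given only as ranks of the probes.

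**Figure D1:**
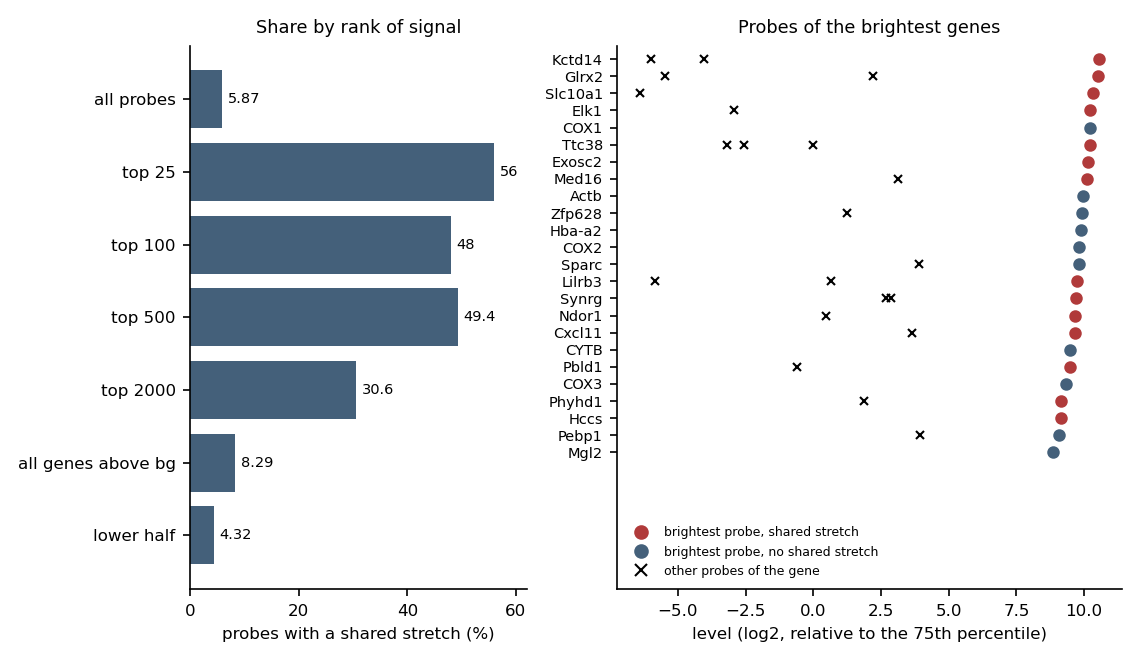
Left, the share of probes (%) with at least 16 bases in common with probes of 2 or more other genes, for all probes and by rank of signal; it was 5.87% of all probes and 49.4% of the 500 brightest genes. Right, levels of the brightest probe of the brightest genes with an established symbol (circles, mean of 3 control arrays; red with a shared stretch) and of the genes' other probes (crosses); Kctd14 stood at 10.55 with other probes at -4.02 and -5.98.

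The other 10 of the 25 brightest genes had no such stretch. They were the mitochondrial genes COX1 (10.21 ± 0.16), COX2 (9.81 ± 0.20), CYTB (9.48 ± 0.09) and COX3 (9.34 ± 0.07), cytoplasmic beta actin Actb (9.95 ± 0.11), the alpha globin Hba-a2 (9.87 ± 0.07), the matrix glycoprotein Sparc (9.80 ± 0.12), Zfp628 (9.93 ± 0.14), the kinase inhibitor protein Pebp1 (9.08 ± 0.15) and the lectin Mgl2 (8.86 ± 0.21). Zfp628, Sparc and Pebp1 had a second probe, at 1.26, 3.89 and 3.95. With the shared probes left out, a choice made after seeing the data, 10 of the 25 genes stayed among the brightest 25. Those that then entered included 2 podocyte genes, Cdkn1c and Sema3g, the phosphatidylserine binder Mfge8 (8.78 ± 0.22) and the growth factor binder Igfbp5 (8.42 ± 0.14).

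Endothelial genes ranked high, with every member detected. All 42 members were above background on all 3 arrays, 19 stood in the top 10% of ranks, and the median rank percentile was 88.4. Over all 18546 genes on the array with an established symbol, 12900 (69.6%) were above background and 1279 stood in the top 10%. Their median percentile was 36.9, where genes not above background count as 0. Counts of every list below are to be read beside these shares. Egfl7, an endothelial secreted factor, read 7.95, 8.06 and 7.99. Ehd3, a membrane-trafficking protein of glomerular endothelium, read 7.52, 7.65 and 7.46. Ly6c1, a surface antigen of endothelium and leukocytes, stood at 7.34 ± 0.08. The VEGF receptors followed, Flt1 at 7.16, 7.30 and 7.12 and Kdr at 7.15, 7.35 and 6.98. Each of these genes varied by less than 0.4 among the arrays, and the orders of neighbours such as Flt1 and Kdr do not differ beyond that spread.

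Further endothelial genes in the top 10% were the calcitonin receptor partner Ramp2 (6.79 ± 0.21), tissue plasminogen activator Plat (6.74 ± 0.25), the adhesion molecule Icam2 (6.69 ± 0.09), the phosphatase Ptprb (6.54 ± 0.13), endoglin Eng (5.95 ± 0.14), the tight junction claudin Cldn5 (5.31 ± 0.09) and VE-cadherin Cdh5 (4.70 ± 0.13). Lower in the order came endothelial nitric oxide synthase Nos3 (4.26 ± 0.16), thrombomodulin Thbd (4.13 ± 0.18), endomucin Emcn (4.12 ± 0.20) and the diaphragm protein Plvap (4.10 ± 0.07). The transcription factors Sox18 (3.48 ± 0.27), Sox17 (3.45 ± 0.09), Erg (1.59 ± 0.29), Sox7 (1.43 ± 0.10) and Gata5 (1.07 ± 0.19) ranged over the upper part of the order. The single Gata5 probe shares a stretch with those of 3 other genes. Pecam1, the classical pan-endothelial marker, was at 0.82 ± 0.12, percentile 55.4. Von Willebrand factor Vwf, which glomerular capillaries are known to hold little of, was the lowest member at -0.24 ± 0.44, with 1 of its 2 probes above background on all arrays.

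Podocyte genes were taken in 4 lists of 62 genes on the array. Of these, 57 (91.9%) were above background on all 3 arrays, against 69.6% of all genes with an established symbol. In the top 10% stood 25, and the median rank percentile was 83.9, against 36.9. The cytoskeletal list, in which Cdkn1c was also placed, was the highest, with 12 of 16 members in the top 10% and a median percentile of 95.7. Cdkn1c, the cell cycle inhibitor of mature podocytes, read 8.63, 8.49 and 8.57, and the GTPase dissociation inhibitor Arhgdia 7.73, 7.88 and 7.72. Non-muscle myosin Myh9 read 7.63, 7.66 and 7.67 and alpha-actinin Actn4 7.14, 7.14 and 7.17, the smallest spreads among the bright members. Actn4, Myh9 and Arhgdia are also expressed in many other cells. The intermediate filament genes Nes and Vim stood at 7.04 ± 0.08 and 5.86 ± 0.17, the chloride channel protein Clic5 at 6.50 ± 0.20 and synaptopodin Synpo at 4.86 ± 0.29. Dendrin Ddn was at 1.42 ± 0.40, and the cytokinesis gene Anln was near the bottom at -2.84 ± 0.51. The Arhgap24 probe was above background on 0 arrays.

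In the slit diaphragm and foot process list, 16 of 18 members were above background and the median percentile was 79.7. The ephrin Efnb1 read 7.35, 7.52 and 7.16, the podocyte phosphatase Ptpro 4.94, 5.13 and 5.51, and the cadherin Fat1 4.94, 4.88 and 5.14. The adapters Tjp1 (4.76 ± 0.08), Cd2ap (4.51 ± 0.14) and Nck2 (4.22 ± 0.10) and podocalyxin Podxl (4.07 ± 0.18) stood close below. Of the nephrin relatives, Kirrel was at 3.1 ± 0.19, Kirrel2 at -0.36 ± 0.29 and Kirrel3 at -1.34 ± 0.85. The other Kirrel probes gave -1.67 and -2.52 and the second Kirrel2 probe -3.03, so the order of these genes depends on the probe. The calcium channel Trpc6 was at -0.66 ± 0.09. Magi2, a scaffold of the slit diaphragm, was above background on 2 of the 3 arrays.

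Among podocyte transcription factors, 10 of 12 were above background, with a median percentile of 76.9. Wt1 led at 5.88, 5.81 and 6.42, followed by Dach1 (4.69 ± 0.19), Foxc2 (4.36 ± 0.03), Foxc1 (4.11 ± 0.17) and Tcf21 (2.28 ± 0.38). Lmx1b, mutated in nail-patella syndrome, was the lowest of those detected at -0.21 ± 0.28. Pax2, which mature podocytes switch off and parietal cells keep, was above background on 1 array, and Zhx2 on 0. All 16 members of the secreted and surface list were above background, with a median percentile of 80.0. The semaphorin Sema3g read 8.44, 8.40 and 8.38, the protease Htra1 6.74, 6.67 and 6.60, Clic3 6.17, 6.63 and 6.08, and the endothelial growth factor Vegfa 5.91, 6.00 and 5.92. The antigens of membranous nephropathy Thsd7a and Pla2r1 stood at 5.45 ± 0.08 and 1.36 ± 0.04, and the lowest members were the peptidase Mme (0.33 ± 0.26), Ildr2 (0.02 ± 0.15) and the prostaglandin synthase Ptgds (-0.24 ± 0.04).

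**Figure D2:**
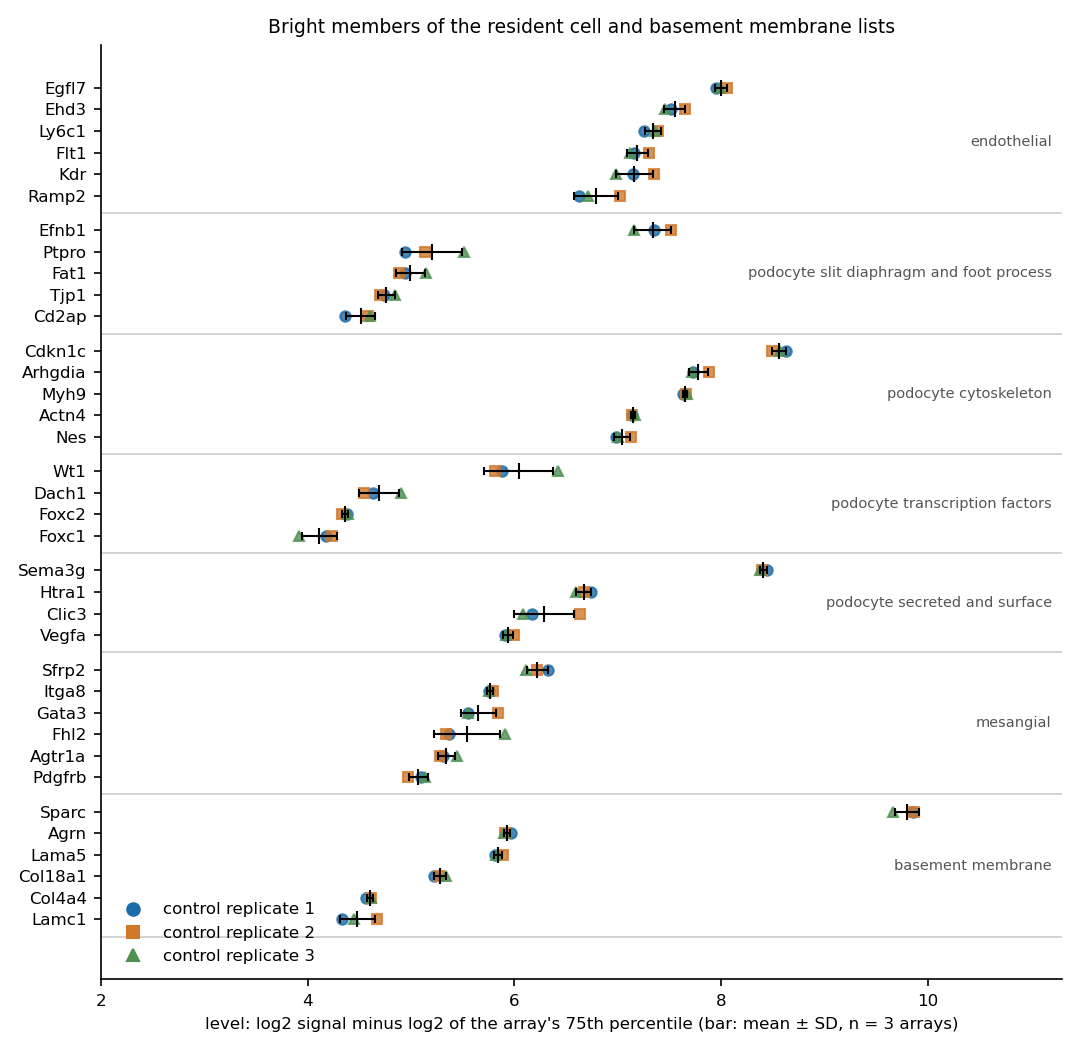
Levels (log2 relative to the 75th percentile of the array) of bright members of the resident cell and basement membrane lists on control replicates 1 to 3, with the mean ± SD over the 3 arrays. Of the genes drawn, Sparc, Cdkn1c and Sema3g stood highest, at 9.80, 8.56 and 8.41, and Wt1 had one of the wider spreads, from 5.81 to 6.42.

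Of 20 mesangial genes, 19 (95%) were above background, against 69.6% of all genes with an established symbol. In the top 10% stood 7, and the median percentile was 82.6. The Wnt modulator Sfrp2 read 6.32, 6.22 and 6.11, and Itga8, the integrin chain that marks the mesangium, 5.75, 5.79 and 5.75. Gata3 read 5.55, 5.84 and 5.55 and the angiotensin receptor Agtr1a 5.31, 5.28 and 5.44. The PDGF receptor Pdgfrb, which mesangial cells need to populate the tuft, was at 5.07 ± 0.09, and Fhl2 at 5.54 ± 0.32. The guanylate cyclase subunits Gucy1a3 and Gucy1b3, the nitric oxide sensor, stood at 4.28 ± 0.24 and 3.15 ± 0.16. Desmin Des (1.20 ± 0.27), Rgs5 (0.51 ± 0.49) and Thy1 (0.40 ± 0.46) were near the middle of the order, and Tbx18 was above background on 0 arrays.

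Smooth muscle and renin genes were above background in 11 of 13 cases (84.6%, against 69.6% of all genes with an established symbol), with a median percentile of 66.9. The regulatory light chain Myl9 read 7.69, 7.61 and 7.41, smoothelin Smtn stood at 5.56 ± 0.18, Tagln at 5.05 ± 0.22 and smooth muscle actin Acta2 at 4.81 ± 0.17. The myosin kinase Mylk was at 3.44 ± 0.07. The potassium channel subunit Kcnj8 was low and variable at -2.53 ± 0.55, and Lmod1 was above background on 0 arrays. Renin, Ren1, lies outside the rule for named genes and was added after its values were seen: it read 1.14, 1.95 and 1.91, with control replicate 1 below the others. In the parietal epithelial list, 12 of 14 members (85.7%, against the same 69.6%) were above background with a median percentile of 60.8. Cd24a stood at 5.62 ± 0.24, Vcam1 at 2.86 ± 0.26, Alcam at 2.36 ± 0.14, Ncam1 at 2.32 ± 0.08 and the keratin Krt7 at 1.74 ± 0.03. Cd44, a marker of activated parietal cells, was at -0.38 ± 0.28 through a probe that shares a stretch with those of 15 other genes, and its best other probe gave -1.53.

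Basement membrane genes were above background in 26 of 27 cases, with a median percentile of 74.1. The members ranged from Sparc at the top to the Fraser complex gene Frem1 at -1.75 ± 0.28. Sparc, a collagen-binding glycoprotein made by many cells, read 9.86, 9.87 and 9.66. Among the laminins, Lama5 (5.84 ± 0.04), Lamc1 (4.48 ± 0.17) and Lamb2 (4.11 ± 0.10), the chains of the mature filter, were above Lamb1 (3.94 ± 0.11), Lama3 (0.03 ± 0.04), Lama4 (-0.43 ± 0.03), Lama1 (-1.12 ± 0.34) and Lama2 (-1.32 ± 0.20), and Lamb3 was above background on 0 arrays. Lamb2 and Lamb1 differed by about the spread among arrays, with 4.01, 4.10 and 4.21 against 3.99, 3.82 and 4.03. Since each value comes from a different probe, these differences are not ratios of transcripts.

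The type IV collagen chains of the mature glomerular network read 4.56, 4.61 and 4.61 for Col4a4, 2.34, 2.40 and 2.75 for Col4a3, and 2.50, 2.40 and 2.56 for Col4a5. The other Col4a4 probes gave 3.37 and 1.85, so the order of these chains depends on the probe. The ubiquitous chains Col4a2 and Col4a1 stood at 3.33 ± 0.09 and 3.04 ± 0.37. Col4a6, a chain of the capsule, was at 0.41 ± 0.15, and its second probe gave -2.53. Of the heparan sulfate proteoglycans, agrin Agrn was at 5.93 ± 0.03, Col18a1 at 5.28 ± 0.06 and perlecan Hspg2 at 3.97 ± 0.19. Their second probes gave -2.69 for Agrn, 4.84 for Col18a1 and -2.62 for Hspg2. Nidogen Nid1 stood at 4.20 ± 0.07, with other probes at -0.93 and -1.63, and Nid2 at 1.38 ± 0.23.

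All 17 receptors and adapters that bind the basement membrane were above background, with a median percentile of 80.3. The integrin chain Itgb5 read 7.28, 7.28 and 7.16, the tetraspanin Cd151 was at 5.96 ± 0.02, dystroglycan Dag1 at 5.61 ± 0.12 and Itgb1, the common beta chain, at 4.30 ± 0.12. Itga6 was at 5.33 ± 0.02 through a probe with a shared stretch, and its other probe, with a stretch shared with those of 4 other genes, gave 1.17. Interstitial matrix genes ranked lower, with 22 of 24 above background and a median percentile of 38.8. Col1a2 (5.68 ± 0.23), the calcification inhibitor Mgp (4.78 ± 0.18) and Fbln5 (3.35 ± 0.09) led, and lumican Lum was above background on 0 arrays. Fn1 (0.71 ± 0.56), Col3a1 (-1.92 ± 0.60) and Fbln1 (-3.65 ± 0.58) were the members with an SD of at least 0.5.

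Ligands and receptors that pass between glomerular cells were above background in 33 of 34 cases, with a median percentile of 62.6. The matricellular Ctgf read 7.49, 7.36 and 7.47, and Pdgfb, the ligand of the mesangial PDGF receptor, 5.99, 6.19 and 6.00. Angptl4 stood at 4.55 ± 0.24, the TGF-beta receptor Tgfbr2 at 4.44 ± 0.27 and Notch3 at 4.33 ± 0.08. Agtr1b was above background on 0 arrays. Complement regulators were above background in 11 of 13 cases (84.6%, against 69.6% of all genes with an established symbol), with a median percentile of 63.5. They were led by clusterin Clu (5.20 ± 0.23), Cd59a (4.57 ± 0.14), the rodent regulator Cr1l (4.18 ± 0.12), the C1 inhibitor Serping1 (3.32 ± 0.23) and Cd55 (3.17 ± 0.14).

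**Figure D3:**
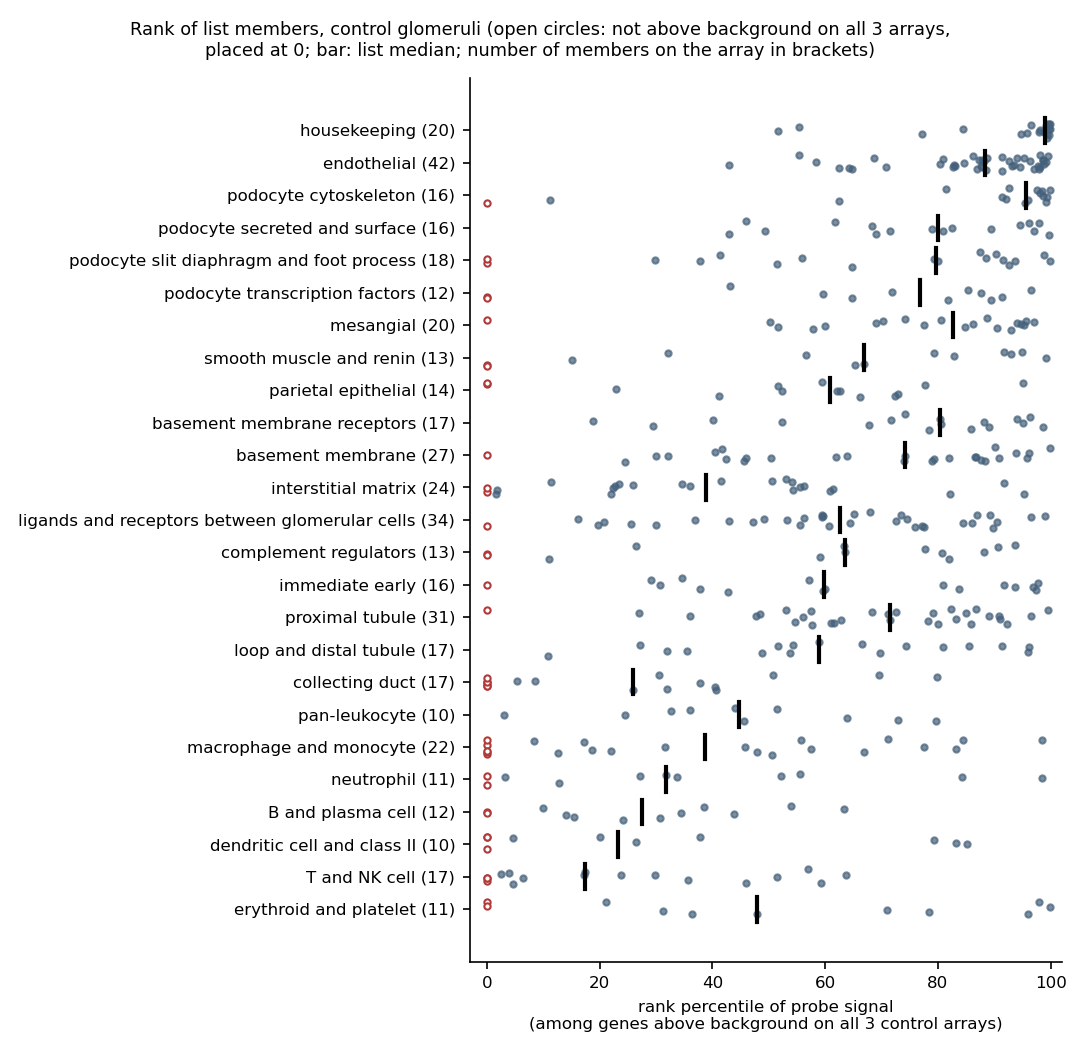
Rank percentile of probe signal for the members of 25 gene lists in control glomeruli, among genes above background on all 3 arrays. Filled circles are such genes, open circles are members not above background on all 3 arrays, placed at 0, and bars are list medians; the endothelial median was 88.4, the proximal tubule median 71.5 and the T and NK cell median 17.4.

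Genes of the proximal tubule had the highest median SD of the lists. Of 31 proximal tubule genes, 30 were above background, 5 stood in the top 10% and the median percentile was 71.5. Kap, the androgen-regulated protein of mouse proximal tubule, read 8.60, 8.21 and 7.66 and the inositol oxygenase Miox 5.40, 4.93 and 4.37. The fatty acid transporter Slc27a2 read 5.08, 4.73 and 4.10. In each of these genes control replicate 1 was highest and control replicate 3 lowest. Across the list, 28 of 30 genes were highest on control replicate 1, against 29.4% of all genes above background, and 28 were lowest on control replicate 3, against 42.7%. The median deviation from the mean of a gene was 0.42, -0.05 and -0.36 on replicates 1, 2 and 3, and the median SD was 0.40, against 0.15 over all genes above background. The exceptions, named after their values were seen, were Cyp4b1 and Gatm, lowest on replicate 2, and Aqp1 and Ass1, highest there. The count of genes highest on replicate 1 was 28 with normexp background correction and 29 with quantile normalization. Miox (SD 0.51), Slc13a3 (3.1 ± 0.50) and Slc7a13 (-0.82 ± 0.52) passed an SD of 0.5.

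The remaining segments differed from this pattern only in part. All 17 genes of the loop and distal tubule were above background, with a median percentile of 58.9. Uromodulin Umod stood at 5.88 ± 0.03 and the growth factor Egf at 4.70 ± 0.26. Here 14 of 17 were lowest on control replicate 2, against 24.4% of all genes. On control replicate 1, 10 of the 17 were highest, against 29.4% of all genes. The median deviation was 0.15, -0.21 and 0.07 on replicates 1, 2 and 3. The thiazide-sensitive transporter Slc12a3 read 1.03, -0.54 and 1.67, the magnesium channel Trpm6 -0.61, -1.72 and -0.24, and calbindin Calb1 0.66, -0.06 and 0.93, while Umod read 5.91, 5.87 and 5.86. Collecting duct genes were above background in 11 of 17 cases (64.7%), against 69.6% of all genes with an established symbol, and their median percentile was 26.0, against 36.9. Of the 11, 7 were highest on control replicate 1, against 29.4% of all genes, with median deviations of 0.18, -0.10 and -0.09. The transcription factor Gata2 (3.08 ± 0.12) and the sodium channel subunit Scnn1a (2.05 ± 0.16) led. The water channel Aqp2, the defining gene of principal cells, was at -0.43 ± 0.14, and the other subunits Scnn1b and Scnn1g, the dehydrogenase Hsd11b2 and the transcription factor Elf5 were above background on 0 arrays.

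Endothelial genes varied less and in another direction. Of the 42, 0 were highest on control replicate 1, 28 were highest on control replicate 2, against 40.1% of all genes, and 28 were lowest on replicate 1, against 32.9%. Under quantile normalization 3 were highest on replicate 1 and 21 on replicate 2. The median deviation was -0.09, 0.10 and -0.02 on replicates 1, 2 and 3. Podocyte genes were highest on control replicate 3 in 31 of 57 cases, against 30.5% of all genes, with a median deviation of 0.03 there. On replicates 1 and 3 the median deviation of the proximal tubule list was thus several times that of the endothelial and podocyte lists. The median SDs lay closer: 0.40 for proximal tubule, 0.14 for endothelial, 0.18 for podocyte and 0.21 for mesangial genes. Podocyte transcription factors alone had 0.30. The part of tubule RNA in the level of other genes was not tested.

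**Figure D4:**
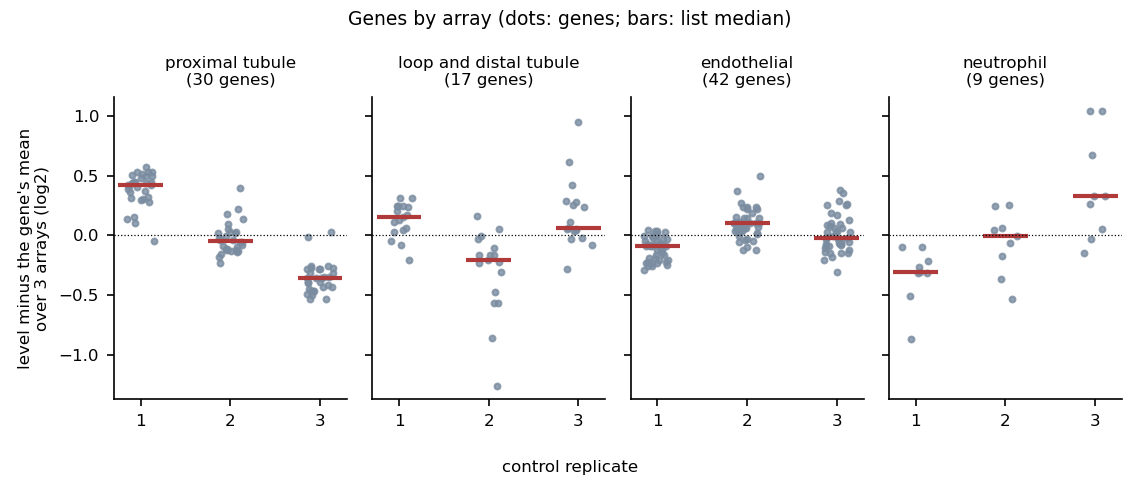
Level of each gene minus its own mean over the 3 arrays (log2), for members above background of 4 lists, on control replicates 1, 2 and 3; dots are genes and bars the list median. Proximal tubule medians were 0.42, -0.05 and -0.36, and endothelial medians -0.09, 0.10 and -0.02.

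**Figure D5:**
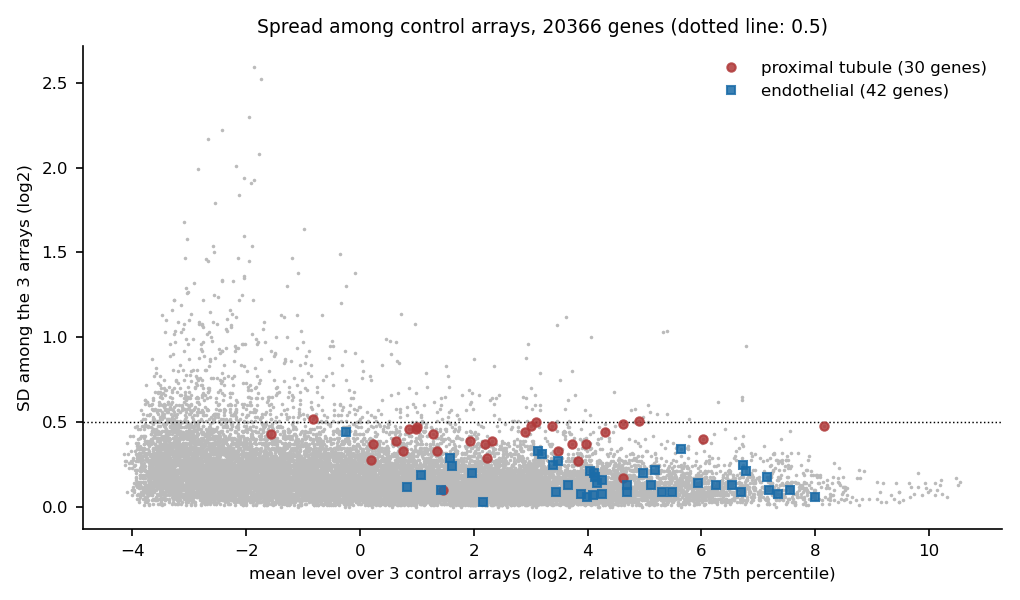
SD among the 3 control arrays against mean level for the 20366 genes above background (grey), with proximal tubule (red) and endothelial (blue) genes; the dotted line is at 0.5. The median SD was 0.40 for the 30 proximal tubule genes and 0.14 for the 42 endothelial genes, and the highest SDs of all genes lay at low levels.

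Leukocyte genes ranked below the resident cells. Of 82 genes in 6 lists, 67 (81.7%) were above background on all 3 arrays, against 69.6% of all genes with an established symbol. In the top 10% stood 2 of the 82, against 1279 of all 18546 with an established symbol. The median percentile was 31.2, not far below the 36.9 of all genes with an established symbol. Both of those 2 genes, Itgam (6.98 ± 0.17) and Csf3r (7.05 ± 0.08), were read by probes with a repeat shown above, and the other Itgam probes gave -2.09 and -3.06. With shared probes left out the median percentile of the leukocyte lists was 26.7. The 10 pan-leukocyte genes were all above background, with a median percentile of 44.8, from the actin regulator Coro1a (3.05 ± 0.36) and Cd52 (2.37 ± 0.34) downward. Ptprc, which encodes CD45 and was added after its values were seen, read -1.49, -1.99 and -1.80.

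Of the macrophage and monocyte list, 17 of 22 genes were above background, with a median percentile of 38.7. The growth factor receptor Csf1r read 3.77, 3.67 and 3.47, the engulfment receptor Mertk was at 3.50 ± 0.18, the mannose receptor Mrc1 at 2.84 ± 0.13 and Cd14 at 2.20 ± 0.15; Mertk and Cd14 are known in other kidney cells too. The other Csf1r probes gave -0.40 and -2.29. Further macrophage genes, picked out after their values were seen, differed in level. Mpeg1 (0.42 ± 0.14), Cd68 (0.2 ± 0.24) and Cx3cr1 (0.02 ± 0.39) lay near the middle of the order by their brightest probes. The second probes of Mpeg1 and Cx3cr1 gave -3.03 and -2.35. That of Cd68 gave -5.2 and was above background on 0 arrays, so the place of these genes depends on the probe. Others were low. Adgre1, which encodes F4/80, was at -3.08 ± 0.16, percentile 8.3, the lysozyme Lyz2 at -2.24 ± 0.18, and the complement chains C1qb and C1qc at -2.37 ± 0.08 and -2.73 ± 0.14. C1qa, Fcgr1, Ms4a7 and Cd163 were above background on 1 array each and Fcgr3 on 2. The monocyte chemokine receptor Ccr2 read -1.94, -2.67 and -1.28. In the dendritic cell and class II list, 7 of 10 genes (70%) were above background, near the 69.6% of all genes with an established symbol. The chains H2-Ab1 (3.72 ± 0.25) and H2-Eb1 (3.50 ± 0.27) and the invariant chain Cd74 (3.03 ± 0.21) were the bright members, and H2-Aa was at -1.62 ± 0.08. The dendritic cell receptor Xcr1 was above background on 0 arrays.

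T and NK cell genes had the lowest median percentile of the leukocyte lists, 17.4, with 14 of 17 above background. Cd4 read 1.36, 1.89 and 1.34, the T cell receptor chain Cd3e stood at 1.14 ± 0.21, Nkg7 at 0.95 ± 0.15 and the kinase Lck at 0.49 ± 0.21. The second probe of Cd4 gave -5.09, above background on 0 arrays, and that of Nkg7 gave -3.56. Klrb1c was above background on 0 arrays. Cd28 (-1.83 ± 0.99) and Cd2 (-0.85 ± 0.58) varied most. B and plasma cell genes had a median percentile of 27.5 with 10 of 12 above background, 8 of the 10 highest on control replicate 1, against 29.4% of all genes, and 9 lowest on control replicate 3, against 42.7%. The adapter Blnk was at 1.50 ± 0.12, the antigen receptor chains Cd79b at 0.69 ± 0.42 and Cd79a at -0.60 ± 0.41, and Pax5 and Blk were above background on 0 arrays.

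Neutrophil genes were above background in 9 of 11 cases (81.8%, against 69.6% of all genes with an established symbol), with a median percentile of 31.7. Of the 9, 7 were highest on control replicate 3, against 30.5% of all genes. Of the calprotectin chains, S100a9 read 3.31, 3.25 and 4.29 and S100a8 0.04, 0.02 and 1.59, so that replicate 3 stood apart from the 2 others. Retnlg read -1.87, -1.17 and 0.04. The granule genes Ngp and Mpo were above background on 0 arrays. Of the blood list, which holds red cell and platelet genes, 9 of 11 were above background. The globins Hba-a1 (6.71 ± 0.29) and Hbb-b1 (5.90 ± 0.27) and the nearly identical Hba-a2 were in the top 10%, where signal from one copy on the probe of another cannot be told apart, and Hbb-b2 read 2.76, 2.54 and 3.52.

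Immediate early genes, which rise within minutes of stimulation and handling of tissue, were above background in 15 of 16 cases, with a median percentile of 59.8. Jun (6.55 ± 0.12), Jund (6.40 ± 0.11), the flow-responsive endothelial factor Klf2 (6.13 ± 0.03), Nr4a1 (5.24 ± 0.25) and Klf6 (4.77 ± 0.08) led with small spreads. A few members were low on control replicate 2: the heat shock gene Hspa1a read 1.49, -0.28 and 1.69, Fos -0.01, -1.10 and 0.34, Fosb -0.75, -2.07 and -0.93, and Atf3 -0.46, -1.52 and -0.81. The matricellular Cyr61 did the same, at 1.72, 0.26 and 1.51. In the list as a whole 10 of 15 genes were lowest on replicate 2, against 24.4% of all genes.

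The 12 genes with an established symbol and the largest SD among the arrays all had mean levels below 0, from -2.67 to -0.09. Over all genes above background, 54.4% had a level of at least 0. The 12 were led by the phospholipase Pla2g3 (0.15, -3.74 and -3.66), the glutamate receptor subunit Grin3b (-0.17, -3.78 and -4.06) and Tmem79 (0.91, -1.82 and -2.04), each high on control replicate 1 alone. The endothelial tip cell peptide Apln (-2.85, -3.04 and -0.19) was high on control replicate 3 alone. Housekeeping genes, for comparison, were all 20 above background with a median percentile of 99 and a median SD of 0.11.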

How the data were processed

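Total RNA of isolated glomeruli, 0.1 µg per sample, was labelled with Cy3 and hybridised to Agilent arrays, per the labels; the probes in the files have 60 bases. The deposited values are intensities: the authors' scanner files hold the processed signal of Agilent Feature Extraction, which is background-subtracted, per the file headers (version 10.7.3.1; the submitters' processing notes give 9.5.3); probe coordinates are on mm9. From these intensities, control spots and outlier-flagged spots were left out, log2 signals were centred on each array's 75th percentile, and spots of a probe were averaged. A probe counted as above background where at least 0.5 of its spots carried the well-above-background flag on each of the 3 arrays. Members of each list not above background were placed at percentile 0 in list medians.

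Only 1 group was described, so no test was made and no p-value is given. Gene names are those of the array design; of 473 list genes in 26 lists, 472 were found, 3 of them under another name (through the RefSeq table, GRCm38.p6). Exons or UTRs under the probes were not analysed here. The members and lists were chosen with earlier results of these data known. Named genes are the 25 brightest with an established symbol, the 5 brightest detected members of each list and members above background on no array (all members for the podocyte, endothelial, mesangial and basement membrane lists), the 12 with the largest SD, list members with an SD of at least 0.5, the genes of the label check and genes whose probes disagree. Alternatives used limma 3.58.1 in R 4.3.3 for normexp (offset 50) and quantile normalization, and Python 3.11.15 with pandas 2.3.3 otherwise; the ranking code was tested on simulated data. The search for shared stretches took every run of 16 bases in the same strand of all probes. Results on some genes are not reported here.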

Additional observations from a re-analysis of the deposited data

How the results depend on the processing

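Values are rank percentiles unless said otherwise. Averaging all above-background probes of a gene, instead of taking the brightest, gave medians of 79.0 (podocyte), 89.5 (endothelial), 69.7 (basement membrane) and 76.6 (proximal tubule); with the median of all its probes they were 79.4, 90.6, 71.5 and 77.8, and 33.0 for the leukocyte lists. With no filter on dim probes, all 34844 genes were ranked, 5704 had an SD of at least 0.5, and the medians were 90.6 (podocyte), 93.2 (endothelial), 89.9 (mesangial), 84.9 (basement membrane), 83.3 (proximal tubule) and 59.8 (leukocyte). With detection on at least 2 of 3 arrays the leukocyte median was 34.6. The 772 genes with an SD of at least 0.5 became 227 with normexp background correction, 1214 with the median of all probes and 1197 with detection on at least 2 arrays. Leaving out probes with a shared stretch, chosen after seeing the data, gave 90.9 (endothelial), 85.4 (mesangial), 76.8 (basement membrane) and 26.7 (leukocyte). The cause of these shifts was not tested. Some of the settings also rank a different number of genes. Without each control replicate in turn, the medians ran from 82.9 to 85 (podocyte), 88.1 to 88.9 (endothelial), 70.7 to 73.1 (proximal tubule) and 30.6 to 31.8 (leukocyte), and the count with an SD of at least 0.5 from 775 to 1131. Of 281 named genes, 279 stayed within 5 percentile points under normexp, 281 under quantile normalization and 144 with the median of all probes. No paired analysis was possible because only 1 group is described and its results come from no test. Signal over background limits the dimmest genes.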

Other observations

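Genes of the circadian clock, a list of 14 chosen after the values were seen, differed between the control arrays in a common way. Of the 12 above background on all 3 arrays, 10 were highest on control replicate 2, against 40.1% of all genes, and the other 2, Arntl and Clock, were lowest there, against 24.4%. Arntl, the activator of the loop, read 0.00, -1.66 and 0.67. Its targets read 6.19, 7.44 and 6.50 for Dbp, 6.52, 7.22 and 6.49 for Tef, 2.66, 3.81 and 2.55 for Hlf, 0.98, 1.95 and 1.16 for Nr1d1 and -1.29, -0.16 and -1.45 for Per3. The time at which each pool was collected is not in the labels used here.

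Long noncoding RNA intervals, which the array names by chromosome position, were above background in 2499 of 4610 cases (54.2%), against 58.4% of all genes on the array. Those above background had a median level of -1.74, against 0.37 over all genes above background, and 59 of the 2499 stood in the top 10% of ranks, which holds 2036 of all 20366. The genes of the X segment that Yaa duplicates were above background in 9 of 12 cases (75%) in these control mice, near the 69.6% of all genes with an established symbol. Of these, Rab9, a GTPase of endosomal transport, stood at 3.22 ± 0.09 and Msl3 at 1.75 ± 0.14. Hccs was at 9.14 ± 0.09 through its only probe, which shares a stretch with those of 4 other genes.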
